A study of Mus musculus with 2 samples.

Results

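The regions described here are 892 stretches of open chromatin in mouse lung that lay away from transcript starts and held many DNase footprints in both libraries of the series. They were chosen by their number of footprints: an autosomal peak over 1 kb from every GENCODE (M21) transcript 5′ end had to overlap 5 or more footprints of its own library, and to overlap such a peak of the other library by 1 bp or more, with overlapping peaks merged. They made up 2.09% of the 42678 distal regions that had a peak in both libraries. In replicate 1 the list held 94786 peaks, of which 60611 were distal and autosomal, and 4372 of those (7.21%) had 5 or more footprints. In replicate 2 the list held 77403 peaks, of which 48842 were distal and autosomal, and 3056 of those (6.26%) had 5 or more. Of these peaks 899 and 895 overlapped a peak of the other library that also held 5 or more, which is 20.6% of the footprint-rich distal peaks of replicate 1 and 29.3% of those of replicate 2.

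Both libraries were DNase-seq of whole lung from male B6CASTF1/J mice aged 14 days, first-generation hybrids of a C57BL/6 and a CAST parent, with no treatment named. By the labels replicate 2 came from 3 males pooled, while for replicate 1 they name a male without speaking of a pool. A single donor record is attached to both libraries, which leaves it unsettled which animals they share. Whole lung mixes epithelial, endothelial, mesenchymal and blood cells, and a region open in few cells cannot be told apart from one open weakly in many. There was 1 group, so no contrast between conditions was made, and the 2 libraries are set side by side throughout.

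DNase I cuts accessible DNA, and a peak is a stretch where cuts pile up. A footprint is a short run of bases inside accessible DNA that is cut less than its surroundings, classically because a bound protein shields it, although the base preference of the enzyme also shapes the cut pattern. Distal accessible regions include enhancers, insulators bound by CTCF, and unannotated promoters, and an enhancer typically binds several transcription factors side by side.

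Because the regions are defined by where protein-sized gaps in cutting recur, 4 of them are printed in part to show how densely the gaps lie. Each line gives the 300 bases at the middle of a region, 5′ to 3′ on the forward strand of GRCm38 (mm10), with the bases under a footprint in both libraries in capitals. The 4 were picked from the 12 highest-ranked regions after their values were seen, and none lies on an annotated UTR. The reference is C57BL/6 sequence, and bases of the CAST parent were not analysed here. They are chr4:55651281-55651580, 118675 bp from the start of Klf4 (a zinc-finger transcription factor), chr7:6728481-6728780 in an intron of Peg3 (an imprinted zinc-finger gene), chr12:85455221-85455520, 18310 bp from the start of Fos (a subunit of the AP-1 factor), and chr11:98773861-98774160 in an intron of Nr1d1 (the clock repressor REV-ERB alpha).
Klf4: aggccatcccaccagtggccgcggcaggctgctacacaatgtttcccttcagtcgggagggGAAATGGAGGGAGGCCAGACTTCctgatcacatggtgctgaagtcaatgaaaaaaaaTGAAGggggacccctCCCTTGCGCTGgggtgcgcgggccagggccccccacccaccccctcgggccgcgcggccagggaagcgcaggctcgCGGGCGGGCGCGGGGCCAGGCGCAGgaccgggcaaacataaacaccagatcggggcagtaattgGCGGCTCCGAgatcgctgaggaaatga
Peg3: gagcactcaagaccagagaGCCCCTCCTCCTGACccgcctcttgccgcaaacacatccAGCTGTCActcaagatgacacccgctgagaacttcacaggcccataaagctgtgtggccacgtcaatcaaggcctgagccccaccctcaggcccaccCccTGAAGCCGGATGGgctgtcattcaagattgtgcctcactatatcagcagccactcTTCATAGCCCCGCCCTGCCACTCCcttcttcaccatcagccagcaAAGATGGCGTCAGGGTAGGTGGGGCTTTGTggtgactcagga
Fos: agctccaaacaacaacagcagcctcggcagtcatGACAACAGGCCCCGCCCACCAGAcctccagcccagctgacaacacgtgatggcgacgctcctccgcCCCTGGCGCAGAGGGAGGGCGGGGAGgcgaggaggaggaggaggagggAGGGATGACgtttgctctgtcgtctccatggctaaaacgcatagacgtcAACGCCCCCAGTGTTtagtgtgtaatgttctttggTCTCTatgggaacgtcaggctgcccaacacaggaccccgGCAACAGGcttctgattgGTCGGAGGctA
Nr1d1: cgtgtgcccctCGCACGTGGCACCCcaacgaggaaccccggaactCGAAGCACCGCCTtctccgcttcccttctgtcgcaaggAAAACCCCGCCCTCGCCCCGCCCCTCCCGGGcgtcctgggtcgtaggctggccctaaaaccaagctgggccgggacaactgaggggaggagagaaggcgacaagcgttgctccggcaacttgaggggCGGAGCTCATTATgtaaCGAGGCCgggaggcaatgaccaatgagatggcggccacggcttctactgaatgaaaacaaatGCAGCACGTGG

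In these windows 74, 91, 95 and 89 bases were under a footprint in both libraries, in the order printed. Several capital stretches spell out known binding motifs. In Nr1d1 the stretch with CCCCGCCC repeated lay under a single footprint in each library, chr11:98773944-98773974 in replicate 1 and chr11:98773942-98773975 in replicate 2. It holds 2 copies of the GC box bound by SP factors, and CACGTG, the E-box bound by factors such as the clock activators CLOCK and BMAL1, lay under footprints on either side. The whole Nr1d1 region held 3 CACGTG matches, of which 2 lay under a footprint in each library. The footprints of Nr1d1 with these motifs are printed here as replicate 1 listed them, with the motif in capitals.
Nr1d1 first E-box footprint: cctcgCACGTGgcacccca
Nr1d1 GC-box footprint: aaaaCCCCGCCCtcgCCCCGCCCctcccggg
Nr1d1 second E-box footprint: gcagCACGTGggcccggct

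In Fos, 2 GC boxes of opposite orientation lay under footprints that both libraries listed. Those of replicate 1, at chr12:85455255-85455277 and chr12:85455321-85455346, were 23 and 26 bp wide. The Fos region also held 1 CAGCTG and 1 CACGTG match, and neither lay under a footprint in either library. In Peg3 the YY1 motif AAGATGGCG occurred 4 times in the region, and 3 of the 4 had their middle under a footprint in replicate 1 and 2 of the 4 in replicate 2. One of these footprints and one with a GC box are printed, as replicate 1 listed them, because Peg3 held 3 of the 5 YY1 matches under footprints in all 892 regions in replicate 1, and 2 of the 5 in replicate 2.
Fos first GC-box footprint: gacaacaggCCCCGCCCaccaga
Fos second GC-box footprint: ccctggcgcagagggaGGGCGGGGag
Peg3 YY1 footprint: AAGATGGCGtcagggtaggtggggctttgt
Peg3 GC-box footprint: agatggcgccaaattGGGCGGGGctctgt

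The number of footprints per region was low for most of the set. The rule set the minimum of 5 in each library, so the closeness of the 2 numbers is partly built in. In replicate 1, 520 of the 892 regions had exactly 5, the median was 5 and the highest 16. In replicate 2, 500 had exactly 5, the median was 5 and the highest 13. The number was the same in both libraries in 417 regions, differed by 1 in 312 and differed by 2 or more in 163. Exactly 5 in both was the commonest case, with 336 regions, and 19 regions had 8 or more in both.

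Just outside the threshold, 1700 distal regions had a peak with exactly 4 footprints in one library and a peak with 5 or more in the other and 1489 had exactly 4 in both. When the footprints of all distal peaks of a region were pooled, 922 regions had 5 or more in both libraries, more than the 892 because the rule asks for 5 in a single peak. Across the 42678 distal regions the numbers in the 2 libraries had a Spearman rho of 0.383 and a Pearson r of 0.399. These describe regions that share peak width and score in both libraries, and carry no test.

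**Figure D1:**
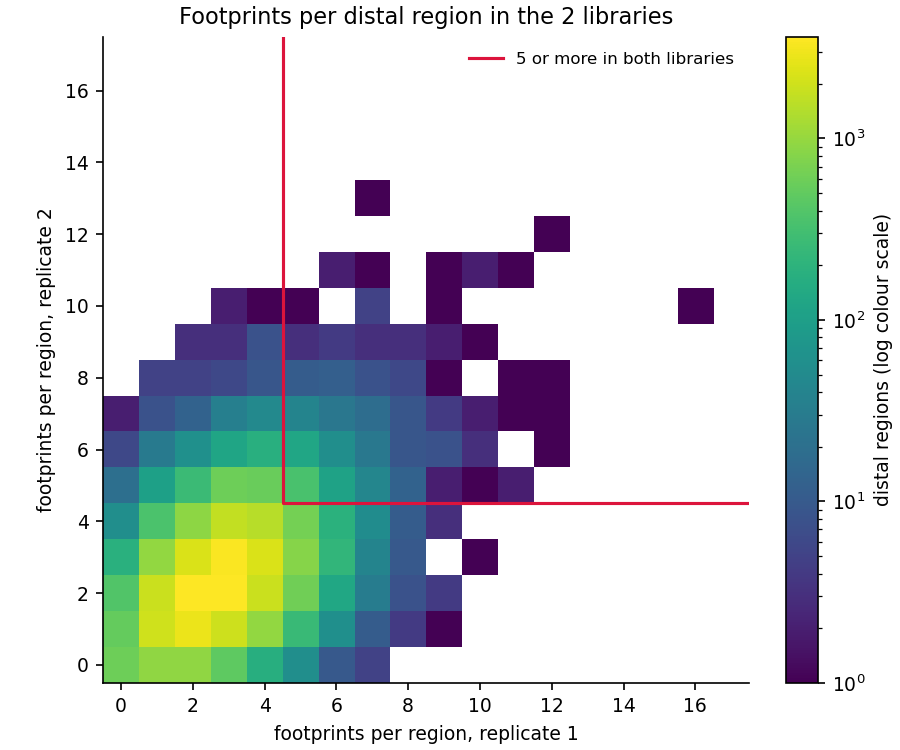
Number of footprints per distal region in replicate 1 (x axis) against replicate 2 (y axis), for the 42678 autosomal distal regions with a peak in both libraries, with footprints of all peaks of a region pooled. Colour gives the number of regions on a log scale, the red lines bound 5 or more in both libraries (922 regions), and most regions sit below 5 in both.

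The 12 highest-ranked regions, by the smaller of the 2 numbers of footprints, lay near genes of signalling and transcription as well as genes with no known part in either. The region near Klf4 (chr4:55651141-55651720, intergenic) had 12 footprints in each library. A region in an intron of Maml3 (chr3:52102001-52102500), which codes for a coactivator of Notch signalling, had 11 in each. The region near Spred2 (chr11:19920121-19920680), an inhibitor of RAS signalling, had 10 in replicate 1 and 11 in replicate 2. A region in an intron of Phldb1 (chr9:44691881-44692500) also had 10 and 11. These 4 regions were 500 to 620 bp wide, against a median of 260 bp over all members. Of the 12, the Klf4 and Phldb1 regions held 2 joined peaks in both libraries, Spred2 in replicate 2 and Peg3 in replicate 1. Their numbers count the footprints of both peaks. Only 8 of the 892 members held more than 1 peak in a library.

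The Peg3 region (chr7:6728301-6728960) had the largest gap between libraries of the 12, with 16 footprints in replicate 1 and 9 in replicate 2. The region near Nup153 (chr13:46735821-46736420), a nuclear pore gene, had 9 and 11, and it lay within 1 kb of a RefSeq transcript start that GENCODE does not list. The region in an intron of Clec11a (chr7:44304861-44305340), which codes for a secreted lectin, had 10 and 9. The region near Tchh (chr3:93444541-93444920), which codes for a hair follicle protein, lay in its coding exon and had 9 and 10.

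The region near Fos (chr12:85455161-85455580) had 9 in each library, and all 9 footprints of each library overlapped one of the other. It overlapped a RefSeq functional element recorded as a VISTA enhancer. The region near Errfi1 (chr4:150871321-150872096), which codes for an inhibitor of the EGF receptor, also had 9 in each library, but only 3 of the 9 overlapped one of the other library. It was the widest of all members, at 776 bp. The Klhl29 region (chr12:5213661-5214060, intron) had 12 and 8, and the Nr1d1 region (chr11:98773841-98774180, intron) 8 and 9. Equal numbers of footprints thus went with very different agreement in position.

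Over all members the footprints of one library mostly lay where the other library had one. In replicate 1, 73.8% of 5134 footprints overlapped a footprint of replicate 2 by 1 bp or more, and in replicate 2, 75.4% of 5138 overlapped one of replicate 1. In the other 41786 distal regions these shares were 58.2% and 68.6%. Where both footprints had to be covered by at least 50%, the shares in the members fell to 54.2% and 54.8%, against 41.3% and 47.1% in the other regions. The members' shares were higher in both libraries under each definition. The rule did not use whether footprints coincided, but it required many footprints in the other library, which makes overlap easier. Some of the other regions lacked any footprint in a library, so sharing was impossible there. In the 37429 with a footprint in both libraries the shares were 60.8% and 70.1%, and 43.2% and 48.1% with at least 50% covered. These were also below the members' shares. How much of the remaining excess comes from the required number was not tested.

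The sharing varied widely from region to region. The median region had 80% of its footprints shared, 115 regions had every footprint of both libraries shared, and 76 had fewer than 50% shared. Sharing was lower in regions with more footprints: 75.5% and 77.2% (replicate 1 and replicate 2) over the 684 regions whose smaller number was 5, and 64.8% and 68.4% over the 19 with 8 or more. It was higher with the peak score: 56.9% and 55.6% in the 37 regions with a mean score percentile under 50, and 79.0% and 83.1% in the 410 at 90 or more. Width differed along both groupings. Its median was 240 bp with a smaller number of 5 and 500 bp with 8 or more. By score it was 360 bp under a percentile of 50 and 220 bp at 90 or more. The part of width in these trends was not tested. Narrow members had the highest shares. In regions under 200 bp 86.9% and 91.4% of the members' footprints were shared, and in regions of 500 bp or more 52.3% and 54.0%. In the other distal regions the share fell with width too, from 59.4% and 74.3% to 38.7% and 38.9% between the same classes. Between the 2 narrowest classes it was nearly level there in replicate 1, at 59.4% and 59.0%.

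The share of bases under a footprint sets how much overlap is likely by position alone, so the overlap was also taken per base. Within the bases where both libraries had a peak, footprints covered 31.5% and 30.1% of the members' bases, and 21.3% lay under a footprint of both. That was 2.24 times the product of the 2 shares. In the other distal regions the covered shares were 24.4% and 20.004%, 14.2% lay under both, and the multiple was 2.90. The multiple was lower in the members, but it cannot exceed the inverse of the larger of the 2 covered shares. Footprints covered more of the members' bases, as a rule that asks for many footprints favours, so their ceiling was lower. The multiple therefore cannot show whether footprints coincided more or less often in the members than in the other regions.

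**Figure D2:**
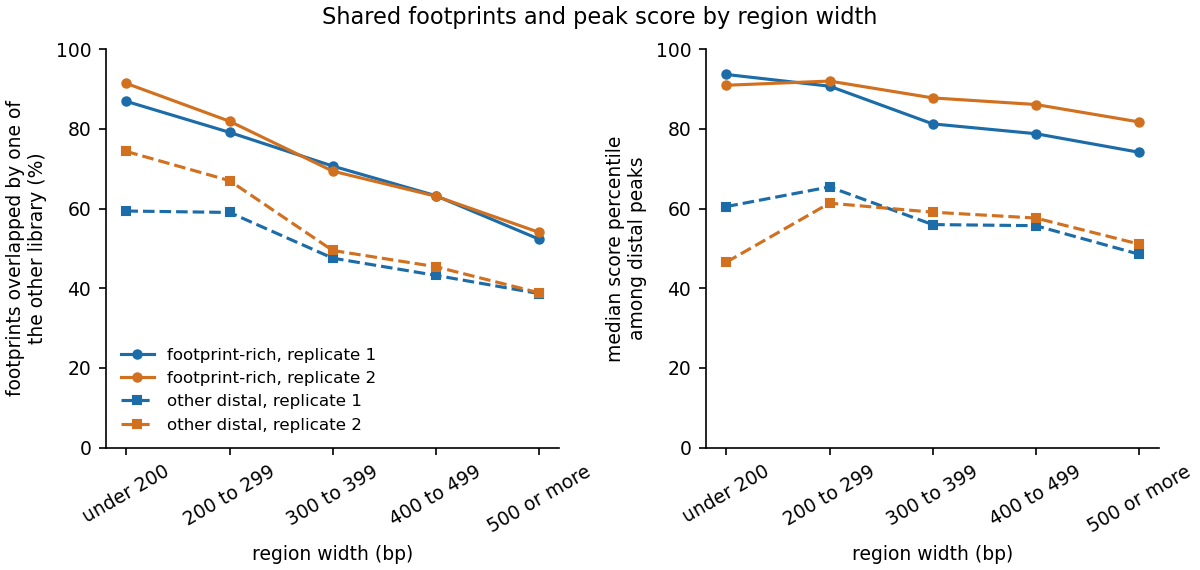
Left, share of footprints (%) overlapped by a footprint of the other library. Right, median percentile of the peak score among the distal peaks of its library. Both are plotted by width class of the region for footprint-rich (circles, solid) and other distal regions (squares, dashed) in each library. Sharing falls from 86.9% and 91.4% to 52.3% and 54.0% with width in the footprint-rich regions, and these lie above the other regions in every class on both panels.

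Footprints in the members were narrow and closely packed. The median width was 11 bp in both libraries, with quartiles of 8 and 19 bp in replicate 1 and 8 and 17 bp in replicate 2. The median distance between the middles of neighbouring footprints was 40 bp in replicate 1 and 39 bp in replicate 2. In the other distal regions it was 51.5 and 50.5 bp, with a median footprint width of 12 and 11 bp. The rule bounds this spacing, since 5 footprints must fit in a peak. In members under 200 bp the spacing was 26.5 and 26 bp, and in members of 500 bp or more it was 54 and 51.5 bp, close to the 56 and 57.5 bp of other regions of that width.

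Footprint-rich regions were wider and had higher peak scores than other distal regions. The score is the signal value of the deposited peak lists, whose scale is not given in the sources used here, so scores are given as percentiles among the distal peaks of the same library. The median width of a member was 260 bp, from 140 to 776 bp, against 198 bp for the other distal regions. The median percentile was 87.6 in replicate 1 and 89.99 in replicate 2, against 62.3 and 54.5 for the others. In both libraries 351 members were in the top 10% of distal peaks, and 18 were below the median in both. Within every width class the members' median percentile was above that of the others: 93.7 and 91.0 against 60.5 and 46.6 under 200 bp, and 74.1 and 81.8 against 48.6 and 51.1 at 500 bp or more. The score and the number of footprints come from the same cuts, and the part of depth at each peak in the result was not tested.

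Seen from all distal peaks, the footprint-rich share climbed steadily with both score and width. From the lowest to the highest 10% of scores it went from 0.259% to 21.2% in replicate 1 and from 0.0996% to 21.2% in replicate 2. From peaks under 200 bp to peaks of 500 bp or more it went from 4.57% to 64.5% and from 2.22% to 61.8%. Peaks within 1 kb of a transcript start held 5 or more footprints more often than distal peaks, in 21.8% of 31850 and 23.7% of 26722 cases.

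**Figure D3:**
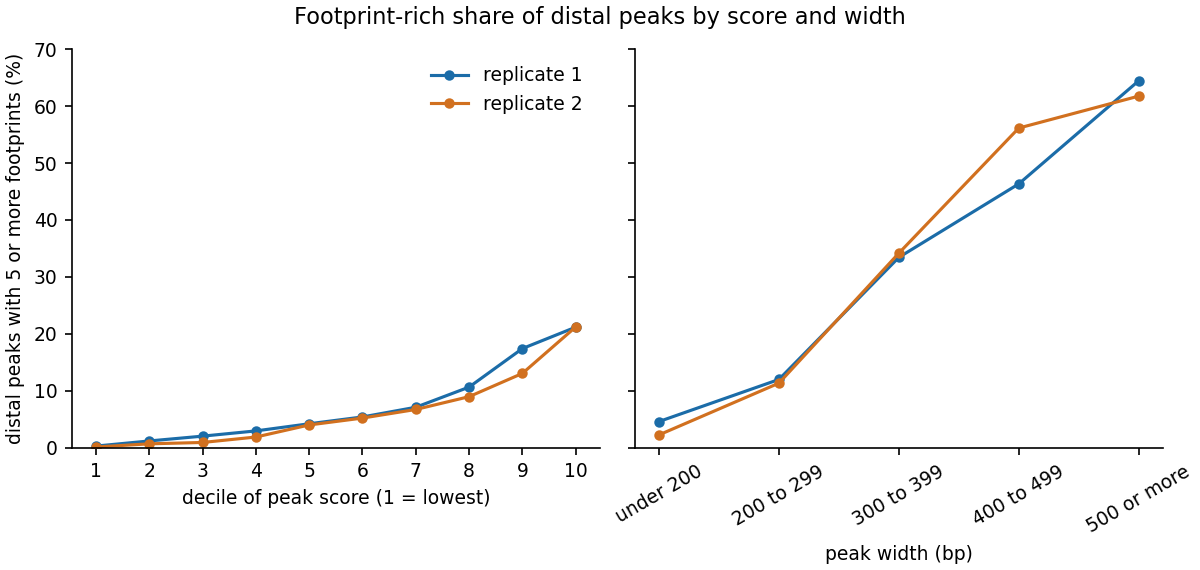
Share of distal autosomal peaks with 5 or more footprints (%) by decile of peak score (left) and by peak width in bp (right), for each library. The share reaches 21.2% in the top 10% of scores and 64.5% and 61.8% in peaks of 500 bp or more.

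The deposited false discovery rates of the cut rate, listed where they are 0.05 or below, covered every base of the members' peaks in both libraries, and 99.9998% and 99.9999% of the peak bases of the other distal regions. The median of the lowest log10 rate in a region was -27.6 and -22.0 (replicate 1 and replicate 2), while the other distal regions had -11.1 and -8.27. The unbroken run of such bases through a member had a median length of 602 and 561 bp, against 301 and 294 bp, longer than the median peak of 240 bp in both libraries. Within width classes the members' runs were also longer, but by less. Under 200 bp they were 321 and 317.5 bp against 275 and 266 bp. From 200 to under 300 bp, the class with the largest gap, they were 552 and 520.5 bp against 342 and 330 bp. At 500 bp or more they were 828 and 768 bp against 770 and 720 bp.

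The 5 members of highest score lay near Ptma, Il31ra, Socs3, C87436 and Angptl6. Socs3, an inhibitor of cytokine signalling, had a region at chr11:117963461-117963700 with 6 and 5 footprints, all shared. The Ptma region (chr1:86525281-86525520) had 5 and 6, and scored 23.04 in replicate 1 and 21.003 in replicate 2. The 5 members of lowest score lay near Nmnat3, Commd3, Stra6l, Bbox1 and Gm26657. In the lowest, in an intron of Nmnat3 (chr9:98329621-98329980), 6 and 5 footprints were listed at scores of 0.672 and 0.858, percentiles 25.7 and 33.3. The region near Gm26657 (chr4:56644001-56644480) had 5 and 6 footprints, of which 2 of each library were shared.

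The DNA of the members was richer in G and C. The median GC share of the middle 300 bases was 54.3%, against 50% in the other distal regions, and the CpG observed over expected ratio was 0.325 against 0.240. The bases masked as repeats averaged 7.31% against 9.23%. Regions with a GC share of 55% or more and a CpG ratio of 0.65 or more, the sequence character of CpG islands, made up 121 members (13.6%) and 2.06% of the others. Within width classes the CpG-rich share was 5.08% against 1.00% under 200 bp and 16.3% against 2.82% from 200 to under 300 bp, but 6.78% against 12.04% at 500 bp or more, where the order turned.

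These 121 CpG-rich members differed from the rest of the set. Their median score percentile was 98.5 and 99.0, the median number of footprints 6 in each library and the median distance to a transcript start 4870 bp. Of them, 23 (19.01%) lay within 1 kb of a RefSeq transcript start. The 74 members with a match to the CTCF motif were narrower, with a median of 200 bp, and 83.3% and 90.2% of their footprints were shared. The 700 members with neither had a median percentile of 84.3 and 87.7, and 71.9% and 73.5% of their footprints were shared.

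Within the members the bases under footprints had another composition than the bases between them. The GC share was 61.4% under footprints and 54.4% between them in replicate 1, and 62.5% and 53.7% in replicate 2. The other distal regions had the same order, with 56.9% and 51.0% in replicate 1 and 58.3% and 51.1% in replicate 2. Matches of 29 short motifs, on both strands, were counted under footprints and between them, and a match was placed by its middle base. The part of base composition, and of the base preference of the enzyme, in the motif ratios that follow was not tested. Intervals are exact 95% intervals from the binomial share and cover counting error only.

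CTCF, the insulator protein, had the highest ratio in replicate 1 among motifs with 15 or more matches. Its motif core had 71 matches under footprints and 5 between them in replicate 1, a density ratio of 22.5 (9.21 to 71.5), and 75 and 5 in replicate 2, a ratio of 25.4 (10.4 to 80.4). The GC box GGGCGGGG of SP factors had 125 and 34 matches in replicate 1, a ratio of 5.83 (3.96 to 8.79), and 134 and 9 in replicate 2, a ratio of 25.2 (12.9 to 56.3). The intervals of the 2 libraries did not overlap, and the libraries differed chiefly in the GC boxes between footprints. The related KLF motif GGGNGTGG, which can overlap a GC box at its edge, had ratios of 3.37 (2.43 to 4.72) and 4.85 (3.45 to 6.94).

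NRF1, a regulator of mitochondrial and other housekeeping genes, had 15 matches of GCGCATGCG under footprints and 3 between them in replicate 1, and 16 and 1 in replicate 2. Its ratios were 7.93 (2.24 to 42.7) and 27.1 (4.20 to 1135), so in replicate 2 it ranked above CTCF, within a wide interval. This motif overlaps its own reverse complement with a shift of 1 base, so a site that holds both counts as 2 matches. In the middle 300 bases 9 of the 892 members held a match. The NRF1 counts can thus exceed the number of sites, and the intervals do not allow for it. YY1 had 5 and 1 in both libraries, a ratio of 7.93 (0.887 to 375) and 8.46 (0.946 to 400), and its interval reached below 1. The NFI half-site TTGGCA had 149 matches under footprints and 85 between in replicate 1, a ratio of 2.78 (2.12 to 3.67), and 170 and 74 in replicate 2, a ratio of 3.88 (2.94 to 5.18). NFI factors are abundant in lung mesenchyme and epithelium. The E-box CAGCTG had ratios of 1.43 (1.12 to 1.81) and 1.58 (1.24 to 2.00). The E-box CACGTG had 1.47 (0.829 to 2.61) and 3.20 (1.79 to 5.91), above 1 beyond its interval in replicate 2 only.

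A second group of motifs was more frequent between footprints than under them. The FOX motif TGTTTAC, bound by forkhead factors such as FOXA2 and FOXF1 of lung, had 2 matches under footprints and 33 between them in replicate 1, a ratio of 0.0961 (0.0112 to 0.376), and 4 and 36 in replicate 2, a ratio of 0.188 (0.0486 to 0.524). The TEAD motif ACATTCC, of the Hippo pathway, had ratios of 0.376 (0.160 to 0.790) and 0.307 (0.125 to 0.660). The ETS motif AGGAAGT had 0.426 (0.238 to 0.725) and 0.537 (0.307 to 0.900), while its form with a CpG, CCGGAAG, had 2.38 (1.21 to 4.79) and 1.47 (0.766 to 2.80). The AP-1 motif TGANTCA had 0.529 (0.306 to 0.878) and 0.623 (0.359 to 1.04). When footprints were widened by 5 bp on each side the AP-1 ratios moved to 0.770 and 0.952.

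In the other distal regions CTCF had ratios of 99.5 (75.9 to 133) and 43.1 (35.7 to 52.4), FOX 0.219 (0.176 to 0.270) and 0.228 (0.180 to 0.286), and AP-1 0.451 (0.403 to 0.504) and 0.513 (0.454 to 0.579). The other motifs named above lay on the same side of 1 there as in the members. TEAD had 0.608 and 0.648, AGGAAGT 0.493 and 0.499, KLF 2.38 and 3.14, and the NFI half-site 2.83 and 2.94. NRF1 had 11.6 and 42.4, YY1 7.08 and 8.40, CAGCTG 1.57 and 1.85, CACGTG 1.38 and 1.93, and CCGGAAG 1.18 and 1.24. The ratio for CTCF was lower in the members than in the others in both libraries, beyond the intervals in replicate 1. This depended on the footprint minimum: with 4 or more footprints the members' CTCF ratios were 58.9 and 119, the latter, of replicate 2, above the 43.1 of the others under the rule as given. With the rule applied in replicate 1 alone and in replicate 2 alone the CTCF ratios were 64.0 and 70.2, the second of them again above 43.1. The GC box had 5.85 (5.00 to 6.88) and 6.09 (5.15 to 7.22) in the others, so the ratio of replicate 2 in the members stood apart and that of replicate 1 did not.

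**Figure D4:**
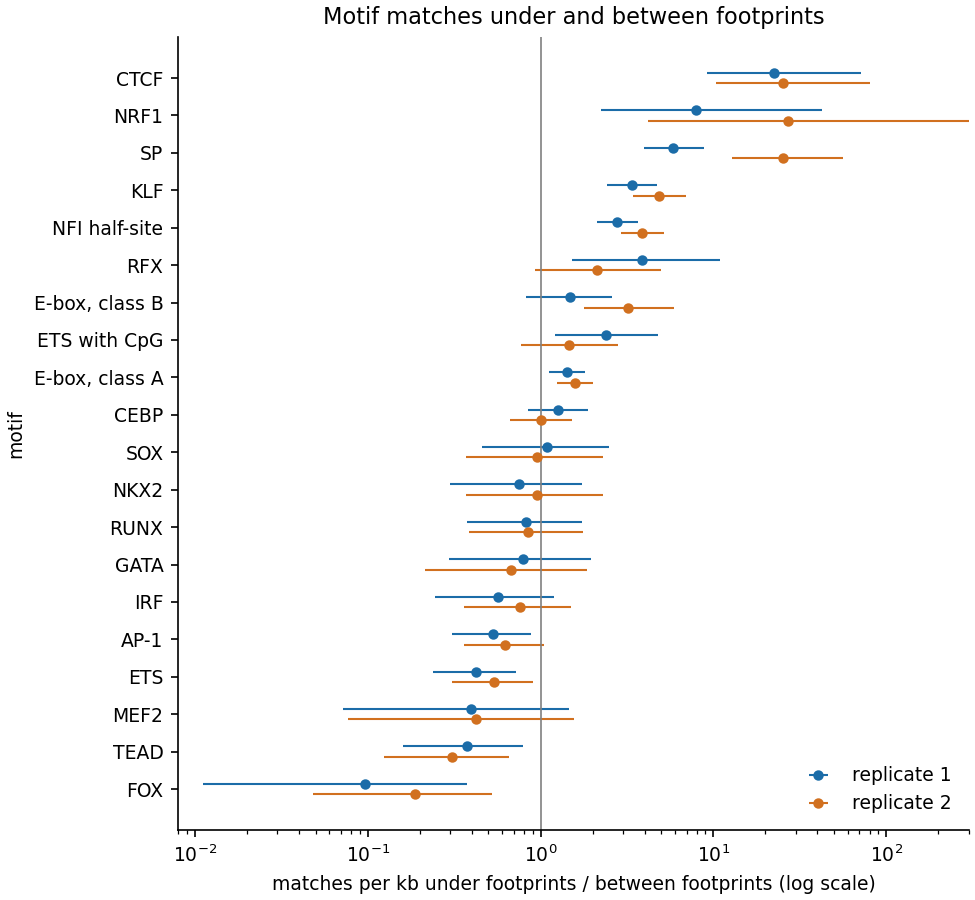
Density of motif matches under footprints divided by that between footprints in the members (x axis, log scale), with exact 95% intervals, for motifs with 15 or more matches in each library. Class A and class B E-boxes are CAGCTG and CACGTG, the line marks equal density, and the upper end for NRF1 in replicate 2 runs beyond the axis. CTCF, NRF1 and SP lie far above 1 in both libraries, and FOX, TEAD and ETS below 1.

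Hexamers were also counted in place of known motifs. Of 1112 hexamers, both strands joined, with 60 or more occurrences in each library, GCCCCC (reverse complement GGGGGC) had the highest smaller ratio, 5.90 in replicate 1 and 8.46 in replicate 2. GCGCCA followed with 5.56 and 6.07. By the larger of the 2 ratios, the lowest were TAAACA, part of the forkhead motif, with 0.159 and 0.237, and AAACAA with 0.289 and 0.261. Grouped by their number of G and C bases, hexamers with 6 had ratios of 2.72 and 3.40, those with 3 had 0.824 and 0.778, and those with 1 had 0.508 and 0.483. The 7 hexamers with none departed from this order, with 0.798 and 0.726.

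The share of regions holding a motif anywhere in the middle 300 bases was compared with the other distal regions, in windows of the same length. The GC box was in 11.996% of members (9.94 to 14.3) and 3.94% of the others (3.76 to 4.13), 4.11% of all distal regions. The KLF motif was in 18.6% (16.1 to 21.3) and 12.5% (12.2 to 12.8), 12.6% of all. CAGCTG was in 31.5% (28.5 to 34.7) and 27.5% (27.1 to 28.0), 27.6% of all. CCGGAAG was in 5.04% (3.70 to 6.69) and 2.94% (2.78 to 3.11), 2.99% of all. The GC box was more frequent in members in every width class. The order of the other 3 turned in some classes: under 200 bp CAGCTG was in 16.9% of members and 24.1% of others and CCGGAAG in 0.847% and 2.24%, at 500 bp or more CAGCTG was in 27.1% and 27.7%, and from 400 to under 500 bp the KLF motif was in 14.02% and 17.6%.

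Under the rule as given, fewer members than others held the motifs of CTCF and of interferon regulatory factors. The CTCF motif was in 8.30% (6.57 to 10.3) against 10.5% (10.2 to 10.8), 10.4% of all distal regions. Width changed this order: under 200 bp it was in 28.0% of members against 14.6% of others, and from 200 to under 300 bp in 8.54% against 7.08%. The footprint minimum and the library changed it too, since the motif was in 13.3% of regions with 4 or more footprints in both libraries, in 13.3% of those with 5 or more in replicate 1 alone and in 9.36% of those in replicate 2 alone. The IRF motif GAAANNGAA was in 6.39% (4.88 to 8.20) against 9.15% (8.88 to 9.43), 9.09% of all, and was less frequent in members in every width class. The AP-1 motif was in 11.3% (9.32 to 13.6) and 11.4% (11.1 to 11.7), 11.4% of all. TEAD was in 6.28% (4.78 to 8.08) against 6.55% (6.31 to 6.79), 6.54% of all, the FOX motif in 5.27% (3.90 to 6.95) against 6.18% (5.95 to 6.42), 6.16% of all, and the NFI half-site in 25.6% (22.7 to 28.6) against 25.02% (24.6 to 25.4), 25.03% of all. For the last 4 the members' interval held the share of the others.

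Most members lay between genes or in introns. By the position of the middle base, 467 (52.4%, exact interval 49.0 to 55.7) were intergenic and 373 (41.8%, 38.6 to 45.1) in introns, while 43.8% and 49.9% of the other distal regions were. Coding exons held 15, UTRs 16 and exons of noncoding transcripts 21. The median distance to the nearest transcript start of any kind was 9232.5 bp, from 1020 to 248513 bp, against 11036 bp for the others. Of the members 152 lay within 2.5 kb of a start. RefSeq, which the rule did not use, placed a transcript start within 1 kb of 80 members (8.97%) and of 4.61% of the others.

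A few members had been annotated as regulatory elements. RefSeq functional elements overlapped 15 members (1.68%) and 258 other distal regions (0.617%). Most of the 15 are VISTA enhancers, elements tested in transgenic mouse embryos. They include the region near Fos, a region near Wnt10a (chr1:74816901-74817100), one near Adgra2 (chr8:27106921-27107200), a coreceptor of WNT7 signalling, and 2 within a single element near Irf2bpl.

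A member lay in the body or within 20 kb of 921 of 20780 autosomal protein-coding genes (4.43%), and 69 genes had 2 or more. The 12 gene lists of cell types gave few. The lung lists had a member at 2 of 15 genes of alveolar type 1 cells, 1 of 14 of type 2 cells, 3 of 20 epithelial regulators, 1 of 14 genes of ciliated cells, 4 of 26 of endothelial cells, 3 of 22 of fibroblasts and 2 of 15 of smooth muscle and pericytes. The lymphoid list had 2 of 15, the myeloid list 0 of 16, and the lists of hepatocytes, neurons and skeletal and heart muscle, cells that lung lacks or holds in small number, 0 of 15, 0 of 14 and 0 of 15. No test was made, and a list of 15 genes at the background share would hold less than 1 such gene.

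Against the number of distal regions near the genes, which differs between lists, 2 of 49 regions at type 1 genes were members (4.08%), 4 of 112 at endothelial genes (3.57%), 5 of 81 at fibroblast genes (6.17%) and 3 of 84 at epithelial regulators (3.57%). At type 2 genes 1 of 30 was a member (3.33%), at ciliated genes 1 of 31 (3.23%) and at smooth muscle and pericyte genes 2 of 67 (2.99%). Of the 5 fibroblast members 3 were at Tbx2. Over all protein-coding genes the share was 2.21%. At the neuronal list it was 0 of 55, at the myeloid list 0 of 30, at the hepatocyte list 0 of 19 and at the muscle list 0 of 26. The 3 lymphoid members were 12% of 25 regions.

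Among endothelial genes, Pecam1, the adhesion protein CD31, had a member in its intron (chr11:106674721-106675100) with 7 and 8 footprints and score percentiles of 94.6 and 97.6. Ets1, an ETS factor of endothelium and lymphocytes, had one in its intron (chr9:32672141-32672780) with 7 and 7, of which 3 of each library were shared. The member near Eng, a TGF-beta coreceptor of endothelium, lay in an intron of Ak1 (chr2:32631821-32632000) with 5 and 6, all shared.

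Among epithelial genes, Id2, an inhibitor of basic helix-loop-helix factors expressed at the tips of the developing airway, had a member 1641 bp from its start (chr12:25098781-25099040) with 6 and 6 and percentiles of 98.5 and 99.5. Elf3, an epithelial ETS factor, had one over a coding exon (chr1:135256401-135256600) with 5 and 6. The member near Grhl2, an epithelial regulator, lay in an intron of Ncald (chr15:37374501-37374920) with 6 and 6. Clic5, a chloride channel protein of type 1 cells, had one in its intron (chr17:44230110-44230409) with 6 and 5, and percentiles of 65.0 and 82.2. The member near Spock2, a proteoglycan gene of type 1 cells, was the narrow intergenic region chr10:60148201-60148380 with a CTCF match and 5 and 5. Etv5, an ETS factor of type 2 cells downstream of FGF, had one in its intron (chr16:22428941-22429220) with 5 and 8. The ciliated list had a member near Tubb4b, a tubulin of axonemes, with 6 and 6 (chr2:25228441-25228880).

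Among mesenchymal genes Tbx2, a T-box factor of lung mesenchyme, had 3 members downstream of it within 3 kb of each other, at chr11:85844201-85844420, chr11:85845987-85846220 and chr11:85846521-85846940, with 6 and 5, 6 and 6, and 5 and 9 footprints. The same 3 regions counted for the predicted gene Gm11444. Nfib, a nuclear factor I gene, had one in its intron (chr4:82622581-82622780) with 5 and 6, all shared. Inmt, a methyltransferase gene of lung fibroblasts, had one near it with 6 and 5 (chr6:55167161-55167360). The members at Myh11, smooth muscle myosin, and near Des, desmin, were 200 and 180 bp wide and had 6 and 5, and 5 and 5. In the lymphoid list Tcf7, a T cell factor, had 2 members, one in its intron with 8 and 6 (chr11:52273301-52273580), and the member near Lef1 lay in an intron of Hadh.

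Of single genes, the readthrough gene model Gm20388 had 8 members over a length of 4435 kb and 269 distal regions, so it spans several other genes. Ehd1, an endocytic recycling gene, had 4 of 10 distal regions as members. Bcl2l1 (an inhibitor of cell death), Maml3, Rhbdf2, Slc12a8, Gdf15, Nr1d1 and Tbx2 had 3 each. At Nr1d1, besides the intronic region, these were a pair of narrow regions at chr11:98785861-98786100 and chr11:98786621-98786800, both nearer to the start of Msl1. At Gdf15, a stress-induced growth factor gene, the region over its coding exon (chr8:70629641-70630080) had 11 footprints in replicate 1 and 7 in replicate 2 and held 3 NRF1 matches. These matches count both strands, so overlapping ones can belong to a single site.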

How the data were processed

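DNase-seq of lung gave 2 libraries of 1 group, each processed by itself on mm10 by the authors, per the file listing they deposited. Which programs called peaks and footprints, and with what settings, is not given in the sources used here. Of the files, the deposited peak lists carry a signal value of unstated scale. The deposited footprint lists carry a constant p-value of 0.01, and the deposited false discovery rates are p-value-like numbers of 0.05 or below per run of bases. Read depth is unknown, so no interval rests on it.

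The peak list with fewer lines was used, and peaks of a library that overlap were joined within a region. Distances used every GENCODE M21 transcript. Sequence came from RefSeq GRCm38. Intervals on shares are exact (Clopper-Pearson, 95%). Named regions are the 12 with the largest smaller number of footprints (ties by the sum, then score percentile), the 5 of lowest and, chosen after the values were seen, the 5 of highest score, up to 3 genes of each of 12 lists and the 10 genes with most members. The members and lists were chosen with earlier results of these data known. With 1 group no difference was tested. Alternatives changed the footprint minimum, the distance, the peak list, the overlaps, the gene flank and the library. The rule and the density ratio were tested on simulated data. A further motif is not reported here. Tools were Python 3.11.15, numpy 2.4.6, scipy 1.17.1, pandas 2.3.3 and matplotlib 3.10.9.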

Additional observations from a re-analysis of the deposited data

Results flagged for a closer look

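The X chromosome was left out by the rule. There 14 of 902 distal regions with a peak in both libraries met the same footprint rule, 1.55%, against 2.09% on the autosomes. Both libraries came from males, which have a single copy of most but not all of X, and the difference between X and autosomes was not tested. The region nearest to Rab39b (chrX:75673861-75674500) had 15 footprints in replicate 1 and 13 in replicate 2, and the one near Gm21887 (chrX:169997921-169998240) had 7 and 9 with scores of 24.3 and 19.7.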

How the results depend on the processing

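Mean values over both libraries are compared here, with main values of 892 regions, a spacing of 39.5 bp, 74.6% of footprints shared, a score percentile of 88.8, a peak width of 240 bp, a GC share of 54.2%, a CTCF motif in 8.30%, 41.6% in introns, a CTCF density ratio of 23.9 and 4.43% of genes with a member. With the rule applied in a single library the ranges were 3056 to 4372 regions, 34 to 35 bp, 53.7% to 64.1%, 81.6 to 82.7, 200 to 220 bp, 52% to 52.3%, 9.36% to 13.3%, 45.4% to 46.2%, 64.0 to 70.2 and 13.6% to 18.4%. With 4 or more footprints there were 4081 regions, 42.8 bp, 75.9%, 85.9, 200 bp, 52.3%, 13.3%, 45.1%, 89.1 and 18.02%. With 6 or more there were 208 regions, 70.3% shared, 320 bp, GC 55.8%, CTCF in 3.37% at a ratio of 9.07, and 1.06% of genes. Over 2.5 kb from starts 740 regions had GC 53.7%, CTCF in 8.38% at a ratio of 30.5, 38.9% in introns and 3.24% of genes. Counting footprints wholly inside the peak left 645 regions, 72.4% shared, percentile 86.1, 260 bp, CTCF in 6.36% at a ratio of 21.02, 41.1% in introns and 3.06% of genes. The longer peak list gave 951 regions, 73.0% shared, percentile 92.6, 99.98% of bases listed, CTCF in 7.99% at a ratio of 26.3, 43.4% in introns and 4.74% of genes. Partners overlapping by 50% of both peaks left 875 regions, and leaving out RefSeq starts, chosen after seeing the data, 812. Footprints widened by 5 bp gave a CTCF ratio of 61.1. The score percentile by width class was 92.3, 91.4, 84.5, 82.5 and 78.0 from narrow to wide. Genes with a member in the body alone were 1.68%, and by nearest start alone 3.81%. Per kb of whole region, CTCF matches were 0.305 in the members and 0.517 in the others. None of the 14 motif ratios followed changed its side of 1 under these settings where a ratio could be formed, which was not the case for NRF1 and YY1 over 2.5 kb from starts and with widened footprints. The cause of each move was not tested. No paired analysis was possible because there is 1 group.

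Read counts are not analysed here, so how depth limits the number of footprints is unknown, and with 2 libraries the spread between mice cannot be estimated. Footprints rest on the mm10 reference, while 1 parental genome of these mice is CAST.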

Other observations

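The members were spread unevenly over the chromosomes. Chromosome 11 held 103, which was 3.12% of its distal regions, and chromosome 14 held 22, or 1.33%. No test was made of this spread. Members had on average 1.43 other distal regions within 10 kb, against 0.934 for the other distal regions, with a median of 1 in both, and 56 members had another member within 10 kb.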
